A study of Mus musculus with 9 samples.

Results

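The genes described here are 9 very long mouse genes of neuronal cell contact and signalling, Nrxn3, Nlgn1, Cntnap2, Cntnap5a, Lrp1b, Csmd1, Csmd3, Dlg2 and Erbb4, out of 55450 genes in the annotation. They were chosen by name for holding few or no SAFB peaks relative to their length, so their sense peak counts are the basis of the choice and are given as a description. A peak was counted as sense for a gene when its midpoint lay in the gene body on the gene's strand. Each gene was set against the other protein-coding genes above 500 kb, of which there were 221. The shortest of the 9, Cntnap5a, spans 903 kb, so no member lies near the length limit.

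RNA was recovered by immunoprecipitation and sequenced (RIP-seq) from mouse embryonic stem cells lysed by sonication, in order to find the RNAs that SAFB1, a nuclear RNA-binding protein, associates with. In 3 of the 9 libraries a SAFB1 antibody was used on wild-type cells, namely the parent line and 2 clones. The others are FLAG antibody in Safb and Safb2 double-knockout cells carrying a full-length SAFB1 plasmid (1), the SAFB1 antibody in such knockout cells without a plasmid (2, each from its own clone), FLAG antibody in knockout cells with an eGFP plasmid (1) and wild-type cells with IgG (2). All cells were CAST/B6 Male Rosa26-RMCE and received doxycycline for 3 days, and both plasmid libraries came from 1 double-knockout clone. For the library with the SAFB1 plasmid the genotype label (wild type) conflicts with the title (a knockout clone), and the grouping here goes by the title. What was analysed is 1 list of 30998 stranded peaks for the whole series (mm10). It carries no value per library, so the groups could not be compared, the depth behind a peak is unknown, no value has replicates, and the cell type could not be checked against its markers. RNA abundance was not used here either. Few peaks because a gene gave little RNA, or was transcribed in few cells, and few peaks per RNA molecule therefore cannot be told apart.

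Several of these proteins meet at synapses. Neurexins such as Nrxn3 sit on the presynaptic membrane and bind neuroligins such as Nlgn1 on the postsynaptic side, where scaffolds of the DLG family such as Dlg2 anchor receptors and channels. Cntnap2 and Cntnap5a belong to the contactin-associated proteins, which are related to neurexins, and Cntnap2 organises potassium channels along myelinated axons. Csmd1 and Csmd3 encode large membrane proteins with CUB and sushi domains, Lrp1b encodes an endocytic receptor of the LDL receptor family, and Erbb4 encodes a receptor tyrosine kinase for neuregulins. The set is therefore one of long neuronal genes, and adhesion describes only some of its members.

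Together the 9 genes held 10 sense peaks in 13.6 Mb of gene body, or 0.734 per Mb (95% exact Poisson interval 0.352 to 1.35), while the 221 other long genes held 2732 peaks in 186 Mb, or 14.7 per Mb (14.2 to 15.3). Such intervals reflect counting error alone and assume that peaks are independent. A peak in overlapping long genes of a strand was counted for each of them, so the 2732 include repeats. The nested genes Gm37388, Gm37013 and Gm42416, for example, hold the same 38 peaks. Without peaks in more than 1 gene of the strand, the other long genes had 13.4 per Mb. At least 1 sense peak was found in 4 of the 9 members (44.4%), against 67.0% of all 230 protein-coding genes above 500 kb. The median density was 0 per Mb over the members and 3.93 per Mb over all 230. The choice of members fixed these differences, and no test was made of them.

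Among genes of this length, holding no peak was common. Of the 221 other long genes, 71 (32.1%) held none, and 74 had a lower density than all members pooled. The 3 other long genes with most peaks, Grip1, Dpp6 and Pde4d, held 17.4% of the 2732 peaks, and 20 genes held 50.0% of them. No member lay above 5 peaks per Mb, while 24.0% of the other long genes lay between 5 and 20 per Mb and a further 24.9% lay above 20. Genes at least as long as Cntnap5a, a comparison chosen after the values were seen, had a pooled density of 10.2 per Mb and a median of 1.57 per Mb (68 genes), and 36.8% of them held no peak.

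**Figure D1:**
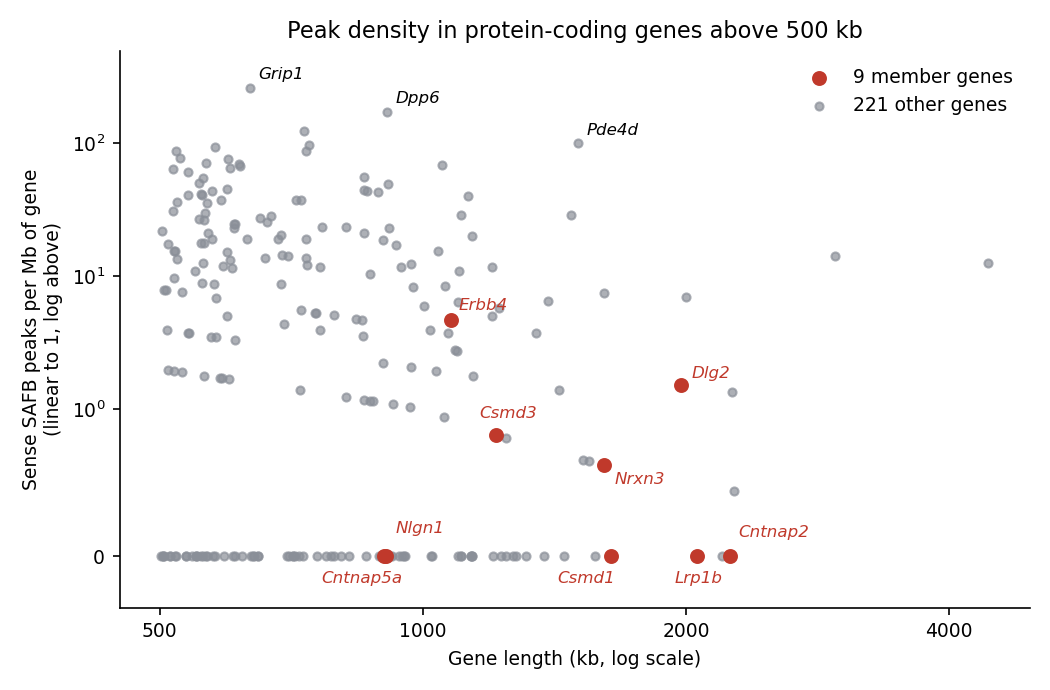
Sense SAFB peaks per Mb (vertical axis, linear up to 1 and logarithmic above) against gene length in kb (horizontal axis, logarithmic) for the 9 members (red) and the 221 other protein-coding genes above 500 kb (grey). The members lie between 0 and 4.65 peaks per Mb, and 71 other genes share the line at 0.

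The neurexin and neuroligin members stood at the low end. Nrxn3 (ENSMUSG00000066392.11, chromosome 12, 88722876 to 90334935, plus strand) held 1 sense peak in 1612 kb, or 0.620 per Mb. That peak, at 89667040 to 89667689, was 650 bases wide and lay 944 kb into the gene and 134 kb from the nearest annotated exon, inside an intron of 443 kb. The other long genes closest to Nrxn3 in density were Pcdh15 (0.645 per Mb), a cadherin of hair cells and retina, and Rbfox1 (0.655 per Mb), a neuronal splicing factor, each with 1 peak. Nlgn1 (ENSMUSG00000063887.13, chromosome 3, 25426215 to 26332460, minus strand) held no sense and no antisense peak in 906 kb. The peak-free stretch of the minus strand around Nlgn1 measured 1919 kb, of which the gene filled 47.2%.

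The contactin-associated members held no sense peak at all. Cntnap2 (ENSMUSG00000039419.17, chromosome 6, 45059357 to 47304213, plus strand) is the longest member at 2245 kb and ranks 5 in length among the 230 long genes. The peak-free stretch of the plus strand around Cntnap2 measured 4194 kb. Cntnap5a (ENSMUSG00000070695.4, chromosome 1, 115684756 to 116587323, plus strand) lay in a peak-free stretch of 3631 kb, of which it filled 24.9%. Its flanks were sparse too, with 2 kept peaks on both strands within 1 Mb of either end.

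Lrp1b and Csmd1 held neither sense nor antisense peaks. Lrp1b (ENSMUSG00000049252.17, chromosome 2, 40595246 to 42653624, minus strand) spans 2058 kb with 91 exons in its longest coding transcript, and lay in the longest peak-free stretch of any member without a sense peak, 4548 kb. Among the 30956 gaps between neighbouring peaks of the same chromosome and strand, that stretch ranks 56. The nearest minus-strand peaks lay 585 kb below and 1905 kb above the gene. Csmd1 (ENSMUSG00000060924.15, chromosome 8, 15892537 to 17535586, minus strand), whose protein is known to restrain complement, spans 1643 kb and lay in a peak-free stretch of 3041 kb. The stretches around the 5 members without a sense peak ranked between 56 and 522 among all gaps.

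Csmd3 (ENSMUSG00000022311.15, chromosome 15, 47580637 to 48792063, minus strand) held 1 sense peak in 1211 kb, or 0.825 per Mb. The peak, at 47992614 to 47992701, was only 88 bases wide, against a median of 596 and a lowest width of 74 over the whole list. It lay 799 kb from the gene start and 8.77 kb from the nearest exon. No protein-coding gene begins or ends within 1 Mb outside Csmd3, and the flanks held 3 kept peaks on both strands. In density its closest counterparts were Cntn5 (0.804 per Mb) and Rbms3 (0.946 per Mb), with 1 peak each.

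Dlg2 (ENSMUSG00000052572.17, chromosome 7, 90476672 to 92449247, plus strand) held 3 sense peaks in 1973 kb, or 1.52 per Mb, of which 1 lay at the gene start and 2 lay 254 and 202 kb before the gene end. The first lay 0.651 kb from the annotated start, at 90477202 to 90477444, and was the only exonic peak of the members. It fell in the first exon of the retained-intron transcript Dlg2-211 (90476672 to 90479068) and covered a 49-base untranslated exon of the coding transcript Dlg2-217. Tmem126b, named here after its values were seen, starts 671 bases before Dlg2 on the minus strand and held no sense peak. The other sense peaks of Dlg2 were 438 and 319 bases wide and lay 1718 and 1771 kb from the start, at 87.1% and 89.8% of the gene, in an intron of 160 kb and 13.6 and 11.9 kb from the nearest exon. Dlg2 also held 1 antisense peak, 195 bases wide, 45.0 kb from its start.

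The sequence under the exonic Dlg2 peak is shown because it is the only sense peak of the 9 genes that lies in annotated transcript sequence. The stretch is the part of the peak beyond the untranslated exon, chr7:90477280-90477444 (mm10, plus strand), read from the GENCODE M21 transcript Dlg2-211, with CG dinucleotides in capitals.
Dlg2 peak, last 165 bases: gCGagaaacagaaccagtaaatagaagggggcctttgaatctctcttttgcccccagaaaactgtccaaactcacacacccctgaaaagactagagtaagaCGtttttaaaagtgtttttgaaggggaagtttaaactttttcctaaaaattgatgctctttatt
Purines (A and G) made up 52.1% of these bases and G and C 38.2%. The purine hexamer AGAAGA and its 2 register shifts, a choice made with earlier results of these data known, do not occur in it on the transcribed strand.

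Erbb4 (ENSMUSG00000062209.15, chromosome 1, 68032186 to 69108059, minus strand) held 5 of the 10 sense peaks of the set, or 4.65 per Mb. That density was above the median of all 230 long genes (3.93), which include the members, and just below that of the 221 others (4.69). Of the 230 genes, 111 were denser. Its count was above the median of 3 peaks over the 230 and of 4 over the 221. Among genes of this length Erbb4 thus lay near the middle, although its density was below the pooled density of the other long genes. The genes closest to it in density were Dlgap1 (4.69 per Mb), a postsynaptic scaffold protein, and Sugct (4.77 per Mb), with 4 peaks each.

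All 5 Erbb4 peaks lay in the first intron of its longest coding transcript, which spans 367 kb, near the start of the gene. They were centred 23.9, 32.2, 52.0, 63.4 and 107 kb from the annotated start, were 303 to 1141 bases wide, and lay at least 23.2 kb from any exon. The remaining 968 kb downstream held none. The farthest peak stood at 9.99% of the gene's length. Among the 101 other long genes with at least 5 sense peaks, the farthest peak stood at a median of 95.1% of the gene, and 1 gene had all of its peaks as near the start as Erbb4. This comparison was chosen after the positions were seen.

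The start of Erbb4 is shown because these distances are counted from it. The sequence is the 250 bases before the start, chr1:69108060-69108309 (minus strand), from RefSeq on GRCm38.p6, the assembly that mm10 names, with CG dinucleotides in capitals.
Erbb4 upstream: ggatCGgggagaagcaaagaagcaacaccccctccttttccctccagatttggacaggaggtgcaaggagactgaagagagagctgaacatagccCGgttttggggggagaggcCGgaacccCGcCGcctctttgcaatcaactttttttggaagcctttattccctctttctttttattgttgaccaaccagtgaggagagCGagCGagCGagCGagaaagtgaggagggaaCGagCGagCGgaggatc
It holds 12 CG dinucleotides, several of them in a run of repeated cgag units near the start, and 54.0% G and C, and 1 of the 3 purine hexamers occurs in it once on the transcribed strand.

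**Figure D2:**
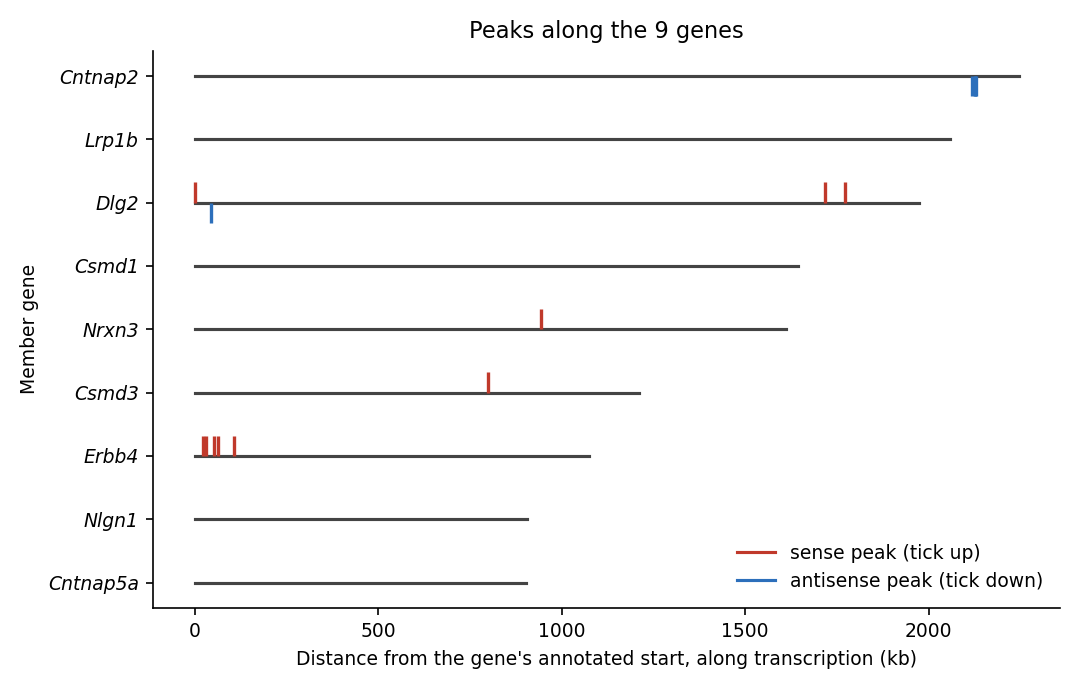
Each line is 1 of the 9 genes, drawn to scale from its annotated start in the direction of transcription (horizontal axis, kb), with sense peaks as red ticks upward and antisense peaks as blue ticks downward. The 5 peaks of Erbb4 lie within 107 kb of its start, those of Dlg2 lie at 0.0330%, 87.1% and 89.8% of its length, and 5 genes carry no red tick.

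Position within the gene was not used to choose the members. Over the 10 member peaks, 6 lay in the first 10% of the gene (60.0%, 95% Wilson interval 31.3 to 83.2), against 10.3% (9.20 to 11.5) of the 2732 peaks of other long genes. Peaks of 1 gene share their source, and Erbb4 supplied 5 of the 6. Without Erbb4 the share was 20.0%, so it rests on that gene. Of the member peaks, 8 lay more than 10 kb from an exon (80.0%, 49.0 to 94.3), against 67.5% (65.7 to 69.2) in other long genes. All 5 Erbb4 peaks are among these 8, and without Erbb4 the share was 60.0%, on the other side of the value of other long genes. Only 1 member peak was exonic (10.0%, 1.79 to 40.4), against 3.15% (2.56 to 3.87), and the share was 20.0% without Erbb4. The members' intervals for both shares contain the value of the other long genes. They are wide and treat peaks of 1 gene as independent, so this does not show that the shares are alike. No member peak lay in the last 10% of its gene (interval 0 to 27.8%), against 11.3% of the peaks of other long genes, which lies inside that interval. Both limits were close to a peak, with a Dlg2 peak at 89.8% and an Erbb4 peak at 9.99% of the gene. The median width of the member peaks was 378.5 bases, or 319 without Erbb4, against 562 in other long genes, and none lay in more than 1 gene of the strand.

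The opposite strand, which was not used in the choice either, held 5 antisense peaks in 2 of the 9 members (22.2%), against 31.3% of all 230 long genes. That is 0.367 per Mb in the members (exact Poisson interval 0.119 to 0.856), against 1.34 per Mb (1.18 to 1.51) in other long genes. Of the 248 antisense peaks in other long genes, Gm20388, Gm37240 and Fgfr2 held 41, 29 and 16. No protein-coding gene overlaps a member on the other strand, and peaks sense to another gene were not removed from the other long genes. Peaks of 1 locus are not independent, so the intervals are too narrow. Of the 5 member peaks, 4 lay together in Cntnap2, within 14.6 kb on the minus strand, between 47175743 and 47190317 and 114 kb before the end of the gene. They were 868, 231, 983 and 2713 bases wide, so the last was wider than any sense peak of the 9 genes. The rest of the Cntnap2 gene body carried no antisense peak. No gene of the minus strand is annotated at this place, and the nearest one, the pseudogene Gm18584, lies 242 kb away.

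The names of the peaks carry numbers that rise along every chromosome and strand, and read as 1 number per call they count calls that were made but not kept. That reading is an inference, since no source states it. For each gene, the calls between the kept peaks on either side were scaled to the gene by length. The kept peaks enter these counts, so they are not fully independent of the choice of members. The 9 members had an estimated 98.7 calls, or 7.25 per Mb, against 46.4 per Mb in the other genes at least as long as Cntnap5a and 56.6 per Mb in the other long genes for which flanking peaks exist (220). In other long genes without a peak the value was 10.0 per Mb. Members ranged from 1.04 per Mb in Nlgn1 and 1.64 in Csmd1 to 14.0 in Cntnap5a and 18.0 in Erbb4, and all 9 lay below the median of other long genes, 25.7 per Mb. The kept peaks amounted to 10.1% of the calls in members and 26.1% in other long genes, against 9.11% over the whole list. Since the members were chosen by their kept peaks, this share follows from the choice and shows nothing further about them.

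Calls were also counted between kept peaks of the same gene. Such spans are set by the kept peaks themselves, so a high density of calls or kept share in them follows in part from that choice. Between the first and last peak of Erbb4, 84.3 kb apart, lay 13 calls, of which 5 were kept (38.5%), which is 154 calls per Mb of that span. Between the outer peaks of Dlg2, 1770 kb apart, lay 12 calls, of which 3 were kept (25.0%), or 6.78 per Mb. Estimated over the whole gene, the values were 18.0 calls per Mb in Erbb4 and 7.59 in Dlg2. Over the antisense group in Cntnap2, 4 of 5 calls were kept (80.0%). In the peak-free stretches the calls not kept numbered 51 around Cntnap5a, 37 around Cntnap2, 21 around Lrp1b, 5 around Csmd1 and 2 around Nlgn1. The genes fill 24.9% (Cntnap5a) to 54.0% (Csmd1) of these stretches, so how many of the calls lie inside a gene is not known.

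The surroundings of the members were also sparse in most cases. Within 1 Mb outside either end, counting both strands, the members had a median of 3.00 kept peaks per Mb, against 6.25 around the 68 other genes at least as long as Cntnap5a and 9.00 around all other long genes. The values were uneven. Cntnap2, Dlg2 and Nrxn3 had 12.5, 12.0 and 8.50 peaks per Mb in their flanks, and the other 6 members had 1.00 to 3.00. The flanks of Nrxn3 and Dlg2 hold 19 protein-coding genes each, while those of Csmd3 hold none and those of Lrp1b and Cntnap5a 1 each.

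**Figure D3:**
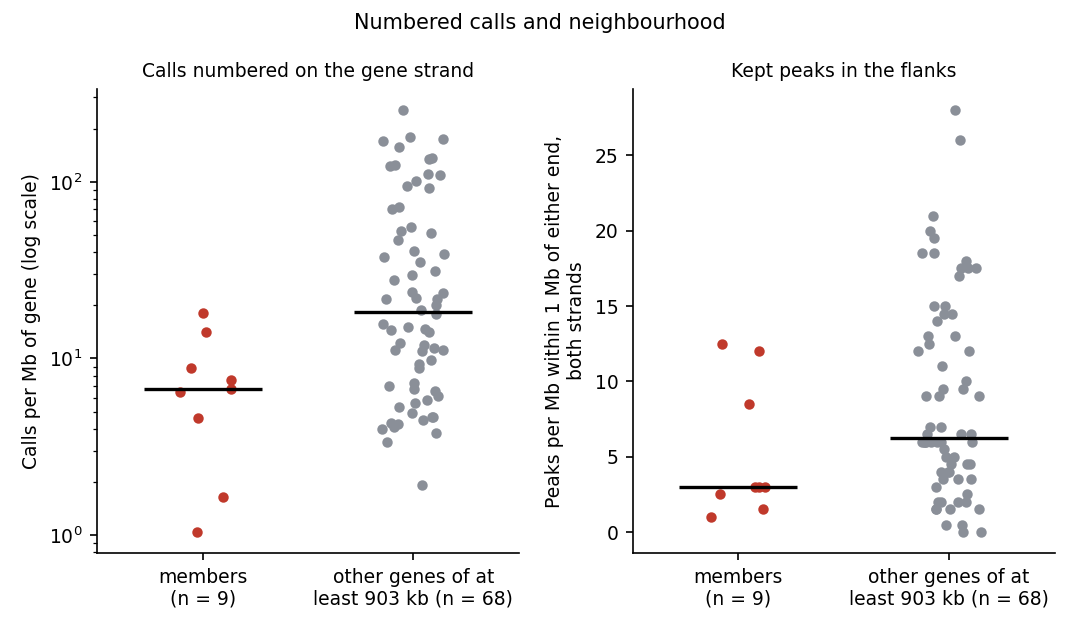
Left, estimated calls per Mb of gene on the gene's strand (logarithmic axis). Right, kept peaks per Mb within 1 Mb of either end of the gene, on both strands. Points are genes, with the 9 members at left and the 68 other genes at least as long as the shortest member at right, and lines are medians (6.75 and 18.4 calls per Mb, 3.00 and 6.25 peaks per Mb).

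In gene structure, 8 of the 9 members exceeded the median of other long genes in the length of the longest intron, and 8 of 9 in the number of exons. The longest intron of the longest coding transcript had a median of 367 kb in the members, against 200 kb in other long genes and 282 kb in the 68 at least as long as Cntnap5a. The exception was Csmd3, whose longest intron spans 140 kb. The median number of exons was 28, against 16 and 14.5, and the exception was Nlgn1 with 8 exons. The coding sequence ran from 2.53 kb in Nlgn1 to 13.8 kb in Lrp1b. Exons of all transcripts made up 0.457% of Cntnap2 to 1.48% of Nlgn1, a range that lies within that of the other long genes (0.0363 to 7.63%).

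Spliced transcripts of the members held fewer of these 3 purine hexamers than the median long gene. The longest coding transcript had a median of 1.64 such hexamers per kb in the members, against 2.55 in other long genes, and 8 of 9 members lay below that value, with Dlg2 (3.07) above it. G and C made up a median of 43.5% of the members' transcripts, against 47.7% in other long genes, with 8 of 9 below it and Csmd1 (50.3%) above. Purines made up a median of 50.2%, against 51.3%, with 8 of 9 below and Lrp1b (53.3%) above. All values of the members lay within the range of the other genes, and no test was made. These are properties of spliced RNA, whereas 9 of the 10 member peaks lay in introns, whose sequence was not used here.

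**Figure D4:**
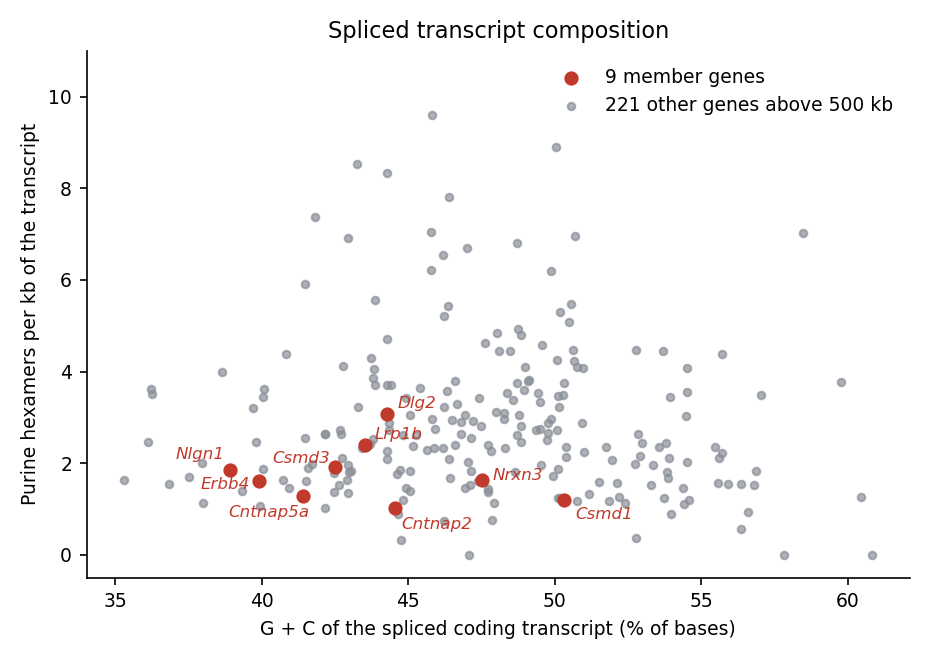
Purine hexamers per kb (vertical axis) against G and C content in percent (horizontal axis) of the longest coding transcript of the 9 members (red) and the 221 other protein-coding genes above 500 kb (grey). The members lie between 1.02 and 3.07 hexamers per kb, inside the cloud of other genes and mostly in its lower part.

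Relatives of the members did not all resemble them. Within the contactin-associated family, none of the 5 relatives had a sense peak, over 1.85 Mb in all, down to Cntnap1, which spans 20.2 kb. The members Cntnap2 and Cntnap5a, also without one, were chosen for few peaks and add nothing here. Of all protein-coding genes 73.8% held no sense peak, and of the other long genes 32.1%. The relatives above 500 kb were Cntnap5b (713 kb) and Cntnap5c (641 kb). Nrxn2, a much shorter relative of Nrxn3, held 3 peaks (23.9 per Mb, 125 kb). Nlgn2 and Nlgn3, which are 14.7 and 26.8 kb long, held 1 peak each. Csmd2 held 4 (6.90 per Mb, 580 kb), next to none in Csmd1 and 1 in Csmd3. Single peaks in short genes give high densities, so counts are more informative than densities there.

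Of the 5 relatives of Lrp1b and Erbb4, 2 held sense peaks, each with more than its counterpart among the members, and 3 held none. Lrp2, an endocytic receptor of epithelia, held 15 sense peaks in 162 kb (92.7 per Mb), while Lrp1 held none in 83.0 kb. Egfr, the epidermal growth factor receptor, held 10 in 166 kb (60.3 per Mb), and Erbb2 and Erbb3, of 25.2 and 22.1 kb, held none. In the DLG family, Dlg1 held 4 peaks in 212 kb and Dlg4 held 1, while Dlg3 and Dlg5 held none. Altogether 9 of the 19 relatives had a sense peak (47.4%), against 26.2% of all protein-coding genes and 67.0% of those above 500 kb. The relatives had a median length of 125 kb, so neither share is matched to them in length. Their pooled density was 10.6 per Mb (7.82 to 14.1).

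Partners of the members varied in the same way. Of 16 neurexin ligands, 2 had a sense peak, Clstn2 and Clstn3 with 1 each, and the long Lrrtm4 and Lrrtm3 had none. Of 6 contactins, which bind contactin-associated proteins, 2 had a peak, Cntn5 and Cntn2 with 1 each. Of 8 ErbB ligands, 3 had a peak, led by Nrg1 (4 peaks in 1069 kb), while Nrg3 (1104 kb) had none. Of 10 partners of postsynaptic scaffolds, 8 had a peak, led by Shank1 (5) and by Dlgap1 and Dlgap2 (4 each), a share of 80.0%. Over all protein-coding genes of any length the share was 26.2%, which lies within the intervals of the neurexin ligands, contactins and ErbB ligands. The median length of all protein-coding genes was 17.4 kb. It was 24.6 kb for the neurexin ligands, 391 kb for the contactins, 92.2 kb for the ErbB ligands and 287 kb for the scaffold partners. The share of 26.2% is therefore not matched to these lists in length.

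Other giant neuronal genes, most of them for adhesion at synapses, spanned a wide range of density. In this list 14 of 19 genes had a sense peak (73.7%), near the 67.0% of all 230 long genes. The pooled density of the list was 14.2 per Mb, against 14.7 in the 221 other long genes, and its median was 2.07 per Mb, against 3.93 in all 230. Il1rapl1, Il1rapl2, Lsamp, Opcml and Tenm2 had none, and Ptprd, at 2271 kb the longest of the list, had 1 (0.440 per Mb). Dpp6, Tenm4 and Tenm3, in contrast, held 158, 72 and 43. The list thus holds genes without peaks beside genes with many.

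The members also differed from some of their neighbours in length and resembled others. For each member the next longer and the next shorter protein-coding gene were taken, which gave 10 genes. Some of these neighbours are far from the member in length, such as Macrod2 (1998 kb) next to Csmd1 (1643 kb). They held 203 sense peaks, of which 158 were in Dpp6, and their median density was 3.25 per Mb. Dpp6 is 910 kb long, against 906 kb in Nlgn1 and 903 kb in Cntnap5a, both without a peak, and Tenm1, at 901 kb, held 2. Nrxn3 (1 peak) and Fhit (12 peaks) both span 1612 kb. Near Lrp1b in length, Macrod2 held 14 peaks and the IgLON adhesion gene Lsamp (2197 kb) none. Near Erbb4, Asic2 and Nrg1 held 3 and 4, close to its 5. Lsamp was the longest other gene without a sense peak, and Ctnna3, Il1rapl1 and Lrrc4c were among the next.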

How the data were processed

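The authors deposited 1 headerless list of 30998 peaks giving position, strand, a name and a score. The deposited score is 500 in every peak and was not used. The submitters' processing notes name mm10, STAR, Subread and featureCounts without versions. How peaks were called or filtered, and whether libraries were pooled, is not given in the sources used here. Starts were taken as counted from 0 and are printed counted from 1. Genes came from GENCODE M21 (GRCm38). Counts, densities, distances and exact Poisson and Wilson intervals were computed in Python 3.11.15 with scipy 1.17.1, and counting and call estimates were tested on simulated peaks. The simulated calls had a uniform density and were kept at random. That test therefore cannot show whether scaling by length holds where calls are uneven, as they are in Erbb4. Coding transcripts are those with the longest coding sequence. RefSeq windows of 300 bases around gene starts existed for 5 members. The members and all gene lists were chosen with earlier results of these data known. Named genes are the members, their family relatives and partner lists, their neighbours in length, the genes closest in density and the extremes among long genes, and some genes that this rule covers are left unnamed. Comparisons between libraries were not run, since the list has no values for single libraries, and depth is unknown.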

Additional observations from a re-analysis of the deposited data

How the results depend on the processing

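Whether a peak needed any overlap with the gene, its midpoint or its whole width inside left the members' density at 0.734 per Mb. With only peaks of the median width or more, the members had 0.294 per Mb with 2 genes holding a peak, and other long genes had 7.12 per Mb. The density of other long genes was 13.4 per Mb without peaks in more than 1 gene, 12.4 without Grip1, Dpp6 and Pde4d, 16.8 for genes above 300 kb, 8.47 above 1000 kb and, in a setting chosen after the data were seen, 10.2 for genes at least as long as the shortest member. The share of genes less dense than the members together was 33.5%, and 44.2% and 41.2% in the last 2 settings. Leaving out each member in turn gave 0.398 to 0.879 per Mb, the lowest without Erbb4, a fall of over 1.5 times from 0.734. Calls in members came to 13.5 per Mb between the outer peaks of Dlg2 and Erbb4, which leaves out the members without peaks. In all, 26 of 38 recomputed values stayed within the interval of the value reported (exact Poisson, or Wilson for shares), or within 1.5 times for counts. The 9 values with a member left out all did, but they share members and their interval, 0.352 to 1.35 per Mb, is wide. The members' median was 0 in every setting. The tally is therefore no measure of how robust the results are. No paired analysis was possible because the list holds no column per library, and no library could be left out for the same reason. The score is constant, so peaks could not be graded by it.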

Other observations

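Starts of the members differed in CG content. The 11 RefSeq windows of 300 bases found for 5 members held 1 to 17 CG dinucleotides, against a median of 7 over 32851 windows of all genes. The highest was the start of Erbb4 with 17, followed by a start of Nrxn3 with 16 and by starts of Cntnap2 and Nlgn1 with 14 each. The 3 windows of Dlg2, which lie at other starts than the one next to its first peak, held 1 to 3. The motif GAAGAA, searched on both strands so that TTCTTC counts too, occurred in 6 of the 11 member windows (54.5%), against 23.0% of all windows. Windows of 1 gene share their locus. In spliced transcripts 8 of 9 members lay below the median of other long genes in purine hexamers per kb. That is an unlike measure, a rate of 3 hexamers on the transcribed strand, so it cannot be set against the share of windows. No test was made of either.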
